A study of Mus musculus with 32 samples.

Results

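The TNF response of control lung endothelial cells (ECs) was measured by comparing the 4 libraries labelled si-control + TNF with the 4 labelled si-control. These are 8 of the 32 bulk RNA-seq libraries of a study of the DNA methyltransferase DNMT1 in ECs, and they were chosen by their labels alone. All 32 came from Veravec, an EC line of mouse lung. The cells received siRNA to Dnmt1 (si-dnmt) or a control siRNA (si-control) and, later, TNF, IFN, both or neither, at 4 libraries per group. Every culture went through lipofection with Lipofectamine RNAiMAX, and a second transfection followed 24 h after the first, so the si-control cells without cytokine were transfected cells and not untouched ones. TNF was TNFα at 10 ng/mL and IFN was IFNγ at 1000 U/mL, each for 16 h. Beside the 2 groups of the main comparison, the si-control + IFN, si-dnmt and si-dnmt + TNF groups are used below. The cells were 1 line, which limits them as a model of lung endothelium. The labels call the replicates biological and number them 1 to 4, without a day, batch or passage, so that p-values measure the spread between these libraries.

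TNF binds TNF receptor 1 on ECs, and adaptor proteins and ubiquitin ligases there activate the IKK kinases. IKK marks the IκB inhibitors for degradation and frees NF-κB dimers to enter the nucleus, where they switch on adhesion molecules, chemokines and cytokines together with the inhibitors that shut the pathway down. In lung endothelium this programme is known for recruiting leukocytes, for shifting the surface from anticoagulant to procoagulant, and for loosening junctions.

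The 8 libraries held between 19048427 and 22677895 counts and detected 20002 to 21289 genes each. Levels are given as TMM-normalised CPM (counts scaled to library size, the unit of edgeR), in the order of replicates 1, 2, 3 and 4, and changes as log2 fold changes ± SE of si-control + TNF over si-control. Genes count as called where the adjusted p was under 0.05 in edgeR's quasi-likelihood test over 15254 genes. The first principal component of the 8 libraries (48.8% of the variance) separated TNF from no cytokine. The second (28.4%) separated replicates 1 and 2 from replicates 3 and 4 in both groups, a division that the labels do not explain. Changes within replicates 1 and 2 and within replicates 3 and 4 are therefore printed for some of the genes in which they differed. Mitochondrial genes took 4.43-5.77% of the counts without cytokine and 3.90-4.51% with TNF, and the 10 most abundant genes took 8.07-8.34% and 6.37-7.41%. The part of these shares in the results was not tested.

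The endothelial label held in the data. All 22 listed endothelial identity genes, among them Cdh5, Pecam1, Tie1 and Erg, were tested, and the lowest of their mean levels in si-control was 10.9 CPM. Of markers of other cells, 3 of 15 epithelial, 9 of 18 fibroblast and mural, 4 of 17 leukocyte and 6 of 7 lymphatic genes had enough counts to be tested. The pan-leukocyte gene Ptprc held at most 2 counts in any of the 8 libraries, and Cd3e, Adgre1 and Tyrobp held 0. The summed level of the leukocyte list, most of it Lyz2 and Cd68, was 191-228 CPM without cytokine and 122-233 CPM with TNF. The sums of the lymphatic list were 601-1432 and 860-979 CPM, and those of the epithelial list 9.33-26.5 and 5.54-12.9 CPM. In these 3 lists 0 members were called in either direction by edgeR, while the fit with the replicate number as a block called 1 lymphatic marker higher, and 2 lymphatic, 2 epithelial and 1 leukocyte marker lower. The fibroblast and mural list is described with the matrix genes. In bulk RNA, fewer cells expressing a gene and less RNA of it per cell cannot be told apart.

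TNF changed 4687 genes, 30.7% of those tested. Of these, 2459 rose (16.1%) and 2228 fell (14.6%), with a median size of 1.6-fold for the rises and 1.61-fold for the falls. Large rises were more frequent than large falls, with 162 genes called at least 8-fold higher and 61 at least 8-fold lower. At a limit of 2-fold, 766 genes rose (5.02%) and 692 fell (4.54%). The 4 TNF libraries lay above all 4 si-control libraries for 2119 of all genes tested (13.9%) and below them for 1903 (12.5%). The direction was the same in replicates 1 and 2 and in replicates 3 and 4 for 99.2% of the rises and 99.3% of the falls. The genes were called from these same libraries, so these shares are no separate check of the calls.

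**Figure D1:**
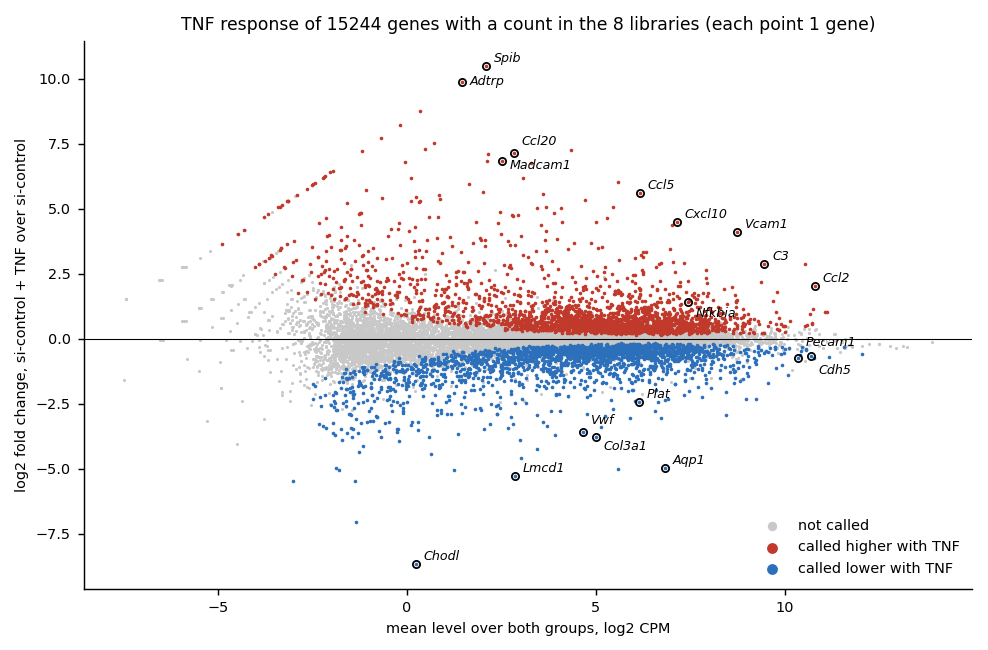
Each point is 1 of the 15244 tested genes with a count in the 8 libraries, with its mean level over both groups on the x axis (log2 CPM) and its log2 fold change with TNF on the y axis; red and blue mark genes called higher and lower. Spib, Adtrp, Ccl20 and Madcam1 stand at the top, Vcam1 and Ccl2 combine large rises with high levels, and Chodl, Lmcd1 and Aqp1 lie at the bottom.

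The 26 lists of genes by role and the 5 lists of cell type markers are described below by the number of members called and by their median log2 fold change, which can be read against a median of -0.0092 over all genes tested. The numbers called can be read against the 16.1% of all genes tested that were called higher and the 14.6% called lower. Members with too few counts were not tested, and a gene could pass that filter through the TNF libraries alone, so counts and medians describe the tested members and are no evidence beyond them. Where edgeR called 0 members of a list in a direction, DESeq2 and the unadjusted test at p under 0.05 gave 0 as well, except for 1 lymphatic and 1 epithelial marker that were lower at an unadjusted p under 0.05. The plot of the lists shows every tested member.

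**Figure D2:**
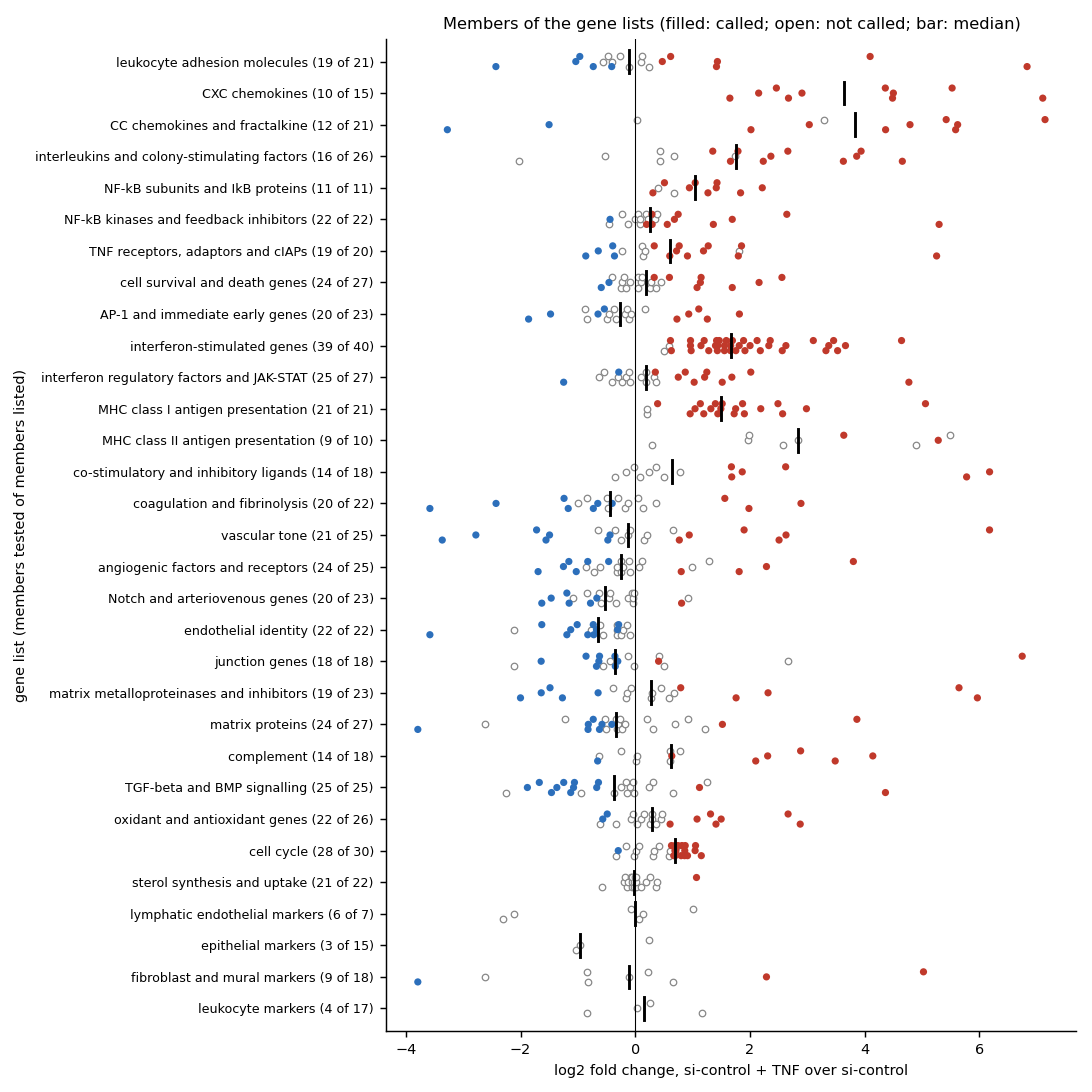
Each point is 1 tested member of a gene list at its log2 fold change with TNF (x axis); filled points were called, red higher and blue lower, open points were not, and the black bar is the median of the list. CXC chemokines, interferon-stimulated genes and MHC class I genes lie almost wholly to the right of 0, and endothelial identity genes wholly to the left.

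Among adhesion molecules for leukocytes, TNF raised Vcam1, Icam1, Sele and Madcam1, while Selp and the junctional molecules Pecam1, Jam2 and Alcam fell. Of 21 listed genes 19 were tested, 6 were called higher and 5 lower, with a median of -0.10, and the replicate block called 8 lower. Vcam1, the ligand of VLA-4 on lymphocytes and monocytes, stood at 44.5, 43.5, 49.8 and 49.5 CPM without cytokine and at 841, 838, 771 and 752 CPM with TNF. The 4 libraries of each group lay close together and far from the other group. The difference was 4.10 ± 0.12 (17.1-fold, adjusted p = 7.42e-20). Icam1, which binds LFA-1, went from 294, 309, 153 and 147 CPM to 670.1, 742, 489 and 539 CPM. Replicates 1 and 2 were higher than 3 and 4 in both groups, and the groups did not overlap. Icam1 rose by 1.43 ± 0.22 (adjusted p = 1.16e-05), with 1.23 in replicates 1 and 2 and 1.78 in replicates 3 and 4. Sele (E-selectin), a rolling receptor made on demand, had 31.8, 35.8, 28.3 and 27.0 CPM in si-control and 111, 109, 57.0 and 50.9 CPM with TNF. All 4 TNF libraries were higher, replicates 1 and 2 most. Its rise was 1.42 ± 0.25 (2.67-fold, adjusted p = 8.05e-05), and the sets differed, with 1.70 and 0.96 (adjusted p = 0.00111). Selp (P-selectin), which ECs store in granules with von Willebrand factor, moved the other way, from 712, 846, 483 and 513 CPM to 345, 387, 257 and 256 CPM. It was lower in every TNF library (-1.04 ± 0.22, adjusted p = 0.000615). Madcam1, the mucosal addressin that binds the gut-homing integrin α4β7, was at 0.141, 0.265, 0 and 0 CPM without cytokine and at 19.5, 16.6, 5.06 and 4.64 CPM with TNF. It was near the counting limit in all si-control libraries, and replicates 1 and 2 were the highest with TNF. The fitted rise was 6.83 ± 1.04 (adjusted p = 1.24e-05). Jam2 fell 5.39-fold (-2.43 ± 0.47), Alcam 1.95-fold (-0.97 ± 0.24) and Pecam1 1.66-fold (-0.73 ± 0.17).

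**Figure D3:**
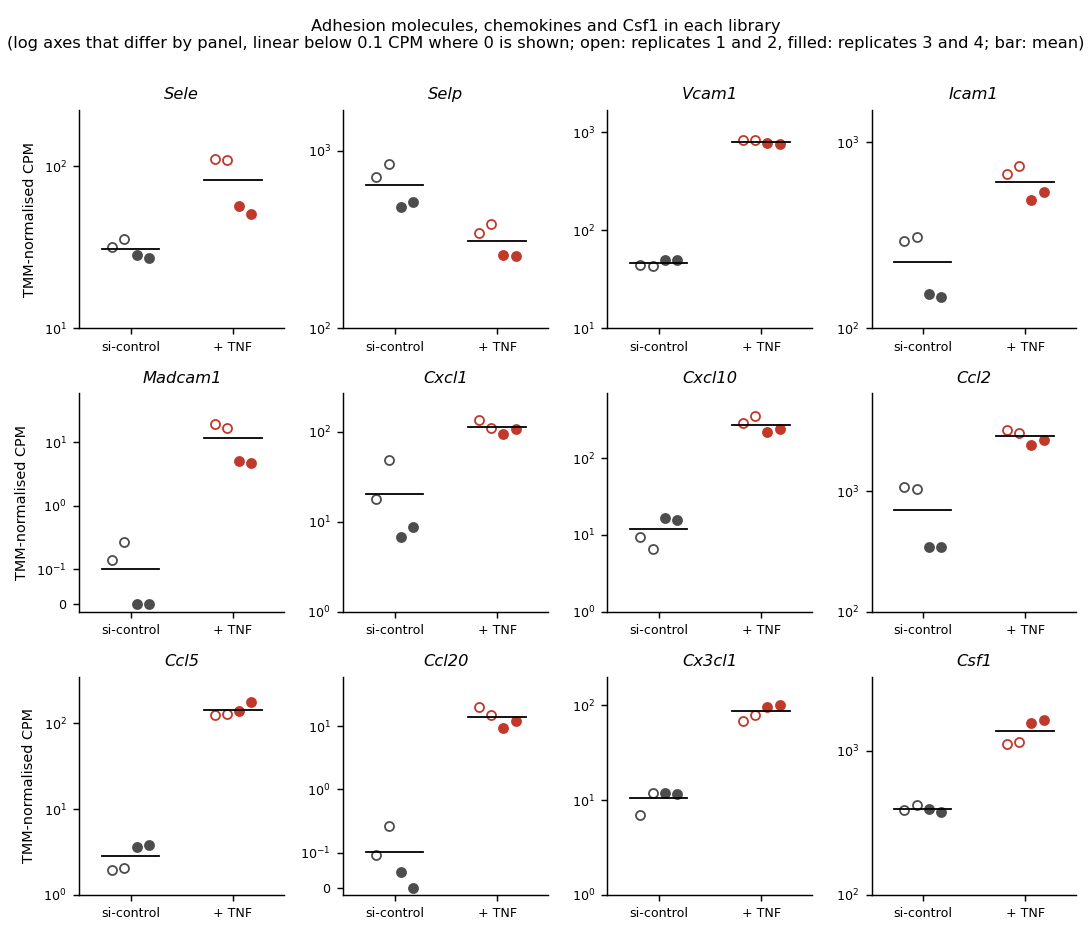
Each panel shows 1 gene, with TMM-normalised CPM on a log axis of its own (linear below 0.1 CPM where 0 is shown), 1 point per library, open for replicates 1 and 2 and filled for 3 and 4, and a bar at the mean of 4. The groups do not overlap in any of the 12 panels, and Selp is the gene that is lower with TNF. With TNF, replicates 1 and 2 lie above 3 and 4 in all panels except those of Ccl5, Cx3cl1 and Csf1, where they lie below.

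Every CXC chemokine that could be tested rose. Of 15 listed genes 10 were tested and 10 were called higher, with a median of 3.63. The neutrophil attractants that bind CXCR2 rose together. Cxcl1 stood at 17.8, 47.8, 6.76 and 8.74 CPM in si-control, with replicate 2 the highest, and at 133, 111, 93.4 and 107 CPM with TNF. The groups did not overlap, and the rise was 2.46 ± 0.45 (adjusted p = 0.000134), smaller in replicates 1 and 2 (1.90) than in 3 and 4 (3.69). Cxcl5 went from 19.3, 30.6, 25.4 and 24.1 CPM to 210.0, 158, 204 and 174 CPM, a rise of 2.91 ± 0.42 (7.50-fold, adjusted p = 6.71e-06) with no difference called between the sets (adjusted p = 0.958). Cxcl2 and Cxcl3 rose by 4.36 ± 0.54 and 4.49 ± 0.43. The CXCR3 ligands, which attract activated T cells and NK cells, rose as well. Cxcl10 had 9.47, 6.57, 16.6 and 15.6 CPM without cytokine and 283, 349, 222 and 241 CPM with TNF. Every TNF library was at least 10-fold above every si-control library, and the rise was 4.50 ± 0.32 (adjusted p = 2.58e-11), with 5.29 in replicates 1 and 2 and 3.84 in replicates 3 and 4. Cxcl9 went from at most 3 counts in each si-control library to 3.78, 4.22, 2.85 and 3.20 CPM, and the ratio of summed counts was 49.98 (95% interval 22.7 to 137). Cxcl11, annotated as a polymorphic pseudogene in GENCODE M21, stood at 0, 0, 0.0439 and 0.179 CPM and 9.70, 12.5, 6.01 and 7.28 CPM. The transmembrane chemokine Cxcl16 rose by 2.67 ± 0.17. Cxcl12, a homeostatic chemokine, went from 33.2, 27.9, 109.7 and 101 CPM to 172, 177, 253 and 253 CPM, a rise of 1.65 ± 0.48 (adjusted p = 0.00956) that was 2.51 in replicates 1 and 2 and 1.26 in 3 and 4.

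Of 21 CC chemokines and fractalkine 12 were tested, 8 were called higher and 2 lower, with a median of 3.83. Ccl2, the main attractant of monocytes, was at 1076, 1038, 344 and 345 CPM in si-control and at 3236, 3059, 2398 and 2661 CPM with TNF. Replicates 1 and 2 started higher, and all 4 TNF libraries lay above them. Ccl2 rose by 2.02 ± 0.31 (4.05-fold, adjusted p = 1.37e-05), with 1.57 in the first set and 2.88 in the second. Ccl5, which attracts T cells and monocytes, went from 1.92, 2.07, 3.65 and 3.81 CPM to 124, 128, 139 and 176 CPM. That was a rise of 5.62 ± 0.43 (49.2-fold, adjusted p = 1.64e-10) with no overlap. Ccl20, the ligand of CCR6, was near the counting limit in si-control (0.0938, 0.265, 0.0439 and 0 CPM) and stood at 20.2, 15.2, 9.21 and 12.1 CPM with TNF. It was among the largest rises of all genes, at 7.14 ± 0.61 (adjusted p = 8.91e-10). Ccl7 and Ccl9 rose by 4.36 ± 0.64 and 5.59 ± 0.59, and Cx3cl1 (fractalkine), a chemokine tethered to the EC membrane, rose by 3.03 ± 0.20 from 6.94-11.97 CPM to 69.3-101 CPM. The 2 members called lower, Ccl6 (-3.28 ± 1.18, adjusted p = 0.0352) and Ccl27a (-1.50 ± 0.54, adjusted p = 0.0355), lost their calls easily. Ccl6 was not called without any 1 of the 4 TNF libraries or without si-control replicate 3 or 4 (adjusted p = 0.0588 to 0.113), and Ccl27a was not called without si-control replicate 1 or 3 or si-control + TNF replicate 2 or 3 (adjusted p = 0.0967 to 0.1804).

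Of 26 interleukins and colony-stimulating factors 16 were tested, 10 were called higher and 0 lower, with a median of 1.76, while the replicate block called 2 lower. Csf1, the survival factor of macrophages, was at 386, 421, 393 and 378 CPM in si-control and at 1108, 1145, 1570.2 and 1639 CPM with TNF. The si-control libraries agreed closely, replicates 3 and 4 were the highest with TNF, and the rise was 1.79 ± 0.14 (adjusted p = 7.45e-11). Csf2, which encodes GM-CSF, had at most 3 counts in each si-control library and 2.19, 1.22, 0.994 and 0.974 CPM with TNF. The ratio of its summed counts was 16.6 (95% interval 7.80 to 42.1). Il34, the other ligand of the CSF1 receptor, rose from 0.234, 0.106, 0.220 and 0.314 CPM to 3.09, 2.90, 3.24 and 3.94 CPM, by 3.86 ± 0.42 (adjusted p = 5.26e-08). Il15, a survival factor of NK and memory T cells, rose by 1.35 ± 0.19, and Lif, a cytokine of the IL-6 family, by 2.23 ± 0.31. Il6 itself was not called over all groups. It stood at 12.2, 13.5, 1.41 and 1.21 CPM without cytokine and at 16.3, 16.9, 2.25 and 2.74 CPM with TNF, so that the 2 replicate sets were further apart than the 2 groups (0.44 ± 0.76, adjusted p = 0.711). Il6 was higher with TNF in all 4 same-numbered pairs, and it was called with the block on the 8 libraries alone (adjusted p = 0.0281) and in replicates 3 and 4 alone (0.00572). Csf3 likewise had 2.02, 5.30, 0.132 and 0.0896 CPM and 0.687, 1.08, 0.0432 and 0 CPM (adjusted p = 0.136, and 0.0166 with the replicate block).

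NF-κB genes themselves and their inhibitors rose. Of 11 subunits and IκB proteins 11 were tested, 9 were called higher and 0 lower, with a median of 1.05. Relb, a subunit of the non-canonical arm, went from 20.7, 23.2, 12.3 and 10.6 CPM to 66.1, 68.3, 83.0 and 92.3 CPM. Every TNF library was higher than every si-control library, and the rise was 2.21 ± 0.18 (adjusted p = 2.72e-10). Its partner Nfkb2 rose by 1.41 ± 0.14 (0.98 and 1.91 in the sets), against 0.31 ± 0.07 for Nfkb1 and 0.51 ± 0.11 for Rela, the subunits of the canonical dimer. Nfkbia, which encodes IκBα, had 121, 135, 59.5 and 62.2 CPM in si-control and 251, 268, 244 and 253 CPM with TNF. The si-control libraries differed by replicate set and the TNF libraries hardly did. Nfkbia rose by 1.43 ± 0.22 (adjusted p = 1.61e-05), with 1.02 in replicates 1 and 2 and 2.03 in 3 and 4. Nfkbie rose by 1.84 ± 0.21.

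Of 22 kinases and feedback inhibitors 22 were tested, 10 were called higher and 1 lower, with a median of 0.26. Tnfaip3, the ubiquitin editor A20, was at 19.5, 22.6, 20.1 and 19.8 CPM in si-control and at 111, 119, 141 and 141 CPM with TNF. Its groups were far apart and its rise was 2.64 ± 0.18 (6.25-fold, adjusted p = 8.08e-12), with 2.45 and 2.82 in the sets. The A20-binding proteins Tnip1 and Tnip3 rose by 1.69 ± 0.29 and 5.30 ± 0.67, and the deubiquitinase Cyld by 0.68 ± 0.16. The IKK subunit Ikbkg was not called, at 0.08, and the related kinase Ikbke rose by 1.36 ± 0.08. The 1 member called lower was Rc3h1, which encodes roquin-1 (-0.44 ± 0.16, adjusted p = 0.0366). It was not called without si-control replicate 1 or 2 or si-control + TNF replicate 3 or 4 (adjusted p = 0.0955 to 0.207), and 2 members were called lower without si-control replicate 4.

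Of 20 TNF receptors, adaptors and cIAPs 19 were tested, 10 were called higher and 4 lower, with a median of 0.60. Tnfrsf1a, the receptor that starts the response, fell from 219, 228, 209 and 197 CPM to 109.6, 123, 116 and 121 CPM. It was lower in every TNF library (-0.86 ± 0.11, adjusted p = 5.11e-07). Ltbr, the lymphotoxin-β receptor, fell (-0.64 ± 0.12). The adaptor Traf1 rose from 22.9, 23.8, 14.1 and 13.5 CPM to 35.9, 39.4, 47.2 and 46.5 CPM (1.19 ± 0.16, adjusted p = 2.67e-06) and the ubiquitin ligase Birc3 from 28.6, 34.01, 12.9 and 14.0 CPM to 78.1, 81.9, 73.0 and 77.6 CPM (1.80 ± 0.22, adjusted p = 5.67e-07). In both genes the rise was larger in replicates 3 and 4, which began lower (0.69 and 1.77 in the sets for Traf1, 1.35 and 2.48 for Birc3). Tank and Birc2 rose by 1.85 ± 0.12 and 1.273 ± 0.17. Tnf itself held 1 count over the si-control libraries and 5 over the TNF libraries, at the counting limit.

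The promoters of 5 of the genes described above are shown as examples, chosen after their values were seen, of raised genes that hold matches to the consensus sequence of NF-κB sites. Matches also stood in the same window of Il6 and Kdr, neither of which was called over all groups, and none stood in that of Icam1, Sele, Birc3, Traf1 or Cx3cl1, which rose. Each line gives the 200 bases that end just before the annotated start, 5′ to 3′ on the gene's strand, from RefSeq's GRCm38.p6, with matches to the NF-κB consensus on either strand in capitals.
Cxcl1 (chr5:90891045-90891244, plus strand): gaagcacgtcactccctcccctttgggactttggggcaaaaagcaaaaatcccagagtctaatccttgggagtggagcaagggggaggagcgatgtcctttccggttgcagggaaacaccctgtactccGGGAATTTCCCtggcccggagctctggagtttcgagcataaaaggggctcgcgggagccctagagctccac
Cxcl10 (chr5:92348890-92349089, minus strand): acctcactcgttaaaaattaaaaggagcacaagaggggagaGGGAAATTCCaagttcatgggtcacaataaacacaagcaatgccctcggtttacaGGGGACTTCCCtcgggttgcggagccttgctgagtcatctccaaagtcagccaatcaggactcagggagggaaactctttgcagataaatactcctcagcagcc
Ccl20 (chr1:83116566-83116765, plus strand): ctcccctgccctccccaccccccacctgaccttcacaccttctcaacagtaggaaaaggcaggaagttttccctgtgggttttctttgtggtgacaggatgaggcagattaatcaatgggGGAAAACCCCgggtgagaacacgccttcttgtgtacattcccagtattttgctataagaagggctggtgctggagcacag
Madcam1 (chr10:79664359-79664558, plus strand): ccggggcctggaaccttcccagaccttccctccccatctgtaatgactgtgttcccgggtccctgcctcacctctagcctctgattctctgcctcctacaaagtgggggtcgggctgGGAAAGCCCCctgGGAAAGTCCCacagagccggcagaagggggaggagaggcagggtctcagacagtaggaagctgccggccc
Nfkbia (chr12:55492648-55492847, minus strand): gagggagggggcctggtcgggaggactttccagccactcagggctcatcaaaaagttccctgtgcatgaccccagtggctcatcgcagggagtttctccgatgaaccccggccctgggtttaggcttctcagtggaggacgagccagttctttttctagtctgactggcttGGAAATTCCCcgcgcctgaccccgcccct
Of the 26 genes named by a fixed list, 19 had a RefSeq window of 300 bases, from 250 before to 50 after the start. The NF-κB consensus was found in 9 of the 19, the AP-1 sequence TGANTCA in 7 and the interferon-stimulated response element (ISRE) in 1. Over all 27025 genes with such a window the shares were 9.55%, 8.97% and 3.99%, and 6.92% held the NF-κB consensus in the 200 bases shown. A comparison of these shares is void. Only 69.0% of the genes tested had a window, and the fixed list was chosen with earlier results of these data known. A match describes letters and not binding, which was not measured here.

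Of 27 cell survival and death genes 24 were tested, 8 were called higher and 2 lower, with a median of 0.19. Of the 2, Tnfrsf10b, a receptor of TRAIL, fell (-0.46 ± 0.12, adjusted p = 0.00430, and 0.0644 with the 8 libraries alone). The replicate block called 3 lower and the 8 libraries alone 0. The count of 2 was 1 with no low-count filter and without si-control replicate 1, 2 or 4 or si-control + TNF replicate 3 or 4. The death receptor Fas went from 3.80, 5.99, 4.87 and 6.86 CPM to 17.9, 18.6, 28.8 and 30.7 CPM (2.16 ± 0.24, adjusted p = 9.84e-08), and the groups did not overlap. Tnfsf10, which encodes TRAIL, rose from 10.5, 7.79, 12.2 and 12.5 CPM to 91.4, 104, 29.2 and 28.6 CPM, by 3.41 in replicates 1 and 2 and by 1.23 in 3 and 4 (adjusted p of the difference = 2.77e-10). Gadd45b, Mlkl and Bid rose by 1.69 ± 0.16, 1.14 ± 0.10 and 1.15 ± 0.15. Sod2, the mitochondrial superoxide dismutase, stood at 65.2, 87.5, 33.0 and 33.7 CPM and 136, 142, 89.95 and 95.1 CPM (1.08 ± 0.36, adjusted p = 0.0239), with 0.87 and 1.47 in the sets. Its call ended with no low-count filter (adjusted p = 0.0587), without si-control + TNF replicate 1 (adjusted p = 0.0562) or 2 (0.0627) and without si-control replicate 3 (0.0843) or 4 (0.0864).

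Of 23 AP-1 and immediate early genes 20 were tested, 5 were called higher and 4 lower, with a median of -0.26. The replicate block called 8 lower, and 2 were called lower without si-control replicate 1 or 2 or si-control + TNF replicate 3 or 4. Fosl1 rose from 11.1, 13.3, 15.3 and 12.9 CPM to 25.2, 26.6, 64.5 and 69.2 CPM (1.82 ± 0.34, adjusted p = 0.000152), by 1.09 in replicates 1 and 2 and 2.24 in 3 and 4. Junb rose by 1.11 ± 0.25, Atf3 by 1.26 ± 0.21 and Myc by 0.93 ± 0.16. Nr4a1, an immediate early nuclear receptor, fell from 14.7, 16.7, 11.4 and 10.1 CPM to 4.94, 4.83, 2.07 and 2.74 CPM (-1.86 ± 0.32, adjusted p = 6.02e-05), and Dusp1, a phosphatase that turns off MAP kinases, fell (-0.65 ± 0.17).

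Interferon-stimulated genes rose almost as a whole. Of 40 listed genes 39 were tested, 37 were called higher and 0 lower, with a median of 1.66. The median was 2.15 in replicates 1 and 2 and 1.19 in 3 and 4, and 28 of the 39 members were called for a difference between the sets. Mx1, an antiviral GTPase, stood at 1.36, 0.795, 3.38 and 3.41 CPM in si-control and at 26.2, 34.2, 18.4 and 15.5 CPM with TNF. Replicates 1 and 2 began lower and ended higher than 3 and 4. The rise was 3.37 ± 0.53 over all libraries (adjusted p = 1.99e-05), with 4.78 and 2.32 in the sets. Oas2, which senses double-stranded RNA, went from 2.02, 1.32, 4.70 and 4.30 CPM to 29.1, 38.0, 49.1 and 42.4 CPM (3.67 ± 0.33), with 4.30 and 3.34 in the sets. Zbp1, a sensor of Z-form nucleic acid, went from 3.42, 2.75, 3.86 and 2.06 CPM to 73.7, 89.5, 71.3 and 68.8 CPM (4.64 ± 0.33, adjusted p = 2.58e-11), with no overlap and no difference called between the sets (adjusted p = 0.730). Isg15, a ubiquitin-like modifier, rose by 1.44 ± 0.28, and Gbp5, a guanylate-binding protein, by 3.46 ± 0.31. Values within the Gbp, Oas and Ifit families are uncertain where near-identical copies share reads.

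Of 27 interferon regulatory factors and JAK-STAT genes 25 were tested, 10 were called higher and 2 lower, with a median of 0.19. The 2 called lower were Irf3 (-0.29 ± 0.11, adjusted p = 0.0482) and Socs3 (-1.25 ± 0.47, adjusted p = 0.0440), neither of which was called without si-control replicate 1 or 2 or si-control + TNF replicate 3 or 4 (adjusted p = 0.0576 to 0.214), nor Irf3 without si-control replicate 3 (0.0754). The replicate block called 4 lower. Irf1, an early target of NF-κB, was at 40.7, 42.0, 32.6 and 27.7 CPM in si-control and at 144, 162, 128 and 143 CPM with TNF. The groups were far apart, by 2.01 ± 0.15 (4.04-fold, adjusted p = 3.17e-11). Irf5 rose from 0.609, 0.265, 0.483 and 0.538 CPM to 6.61, 10.5, 17.7 and 18.1 CPM (4.77 ± 0.31) and Irf7 by 1.52 ± 0.30. The interferon-γ receptor chain Ifngr1 rose by 1.68 ± 0.11.

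Antigen presentation through MHC class I rose as a group. Of 21 listed genes 21 were tested, 19 were called higher and 0 lower, with a median of 1.49. H2-K1, a classical heavy chain, went from 317, 232, 207 and 188 CPM to 1318, 1278, 813 and 898 CPM. Every TNF library was higher (2.19 ± 0.35, adjusted p = 2.65e-05). The light chain B2m rose by 1.14 ± 0.23, the peptide transporter Tap1 by 1.87 ± 0.19, the immunoproteasome subunit Psmb9 by 2.99 ± 0.20 and the transactivator Nlrc5 by 1.72 ± 0.24. H2-Q7, a non-classical gene, rose from 2.33-2.77 CPM to 59.0-109.7 CPM. The heavy chain genes are near-identical, so that their values are uncertain one by one. The endoplasmic chaperones Calr and Pdia3 were the 2 members not called, at 0.20 and 0.20, and the block called both (adjusted p = 0.0449 and 0.0476).

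MHC class II stayed at low levels. Of 10 listed genes 9 were tested and 2 were called higher, Cd74 and H2-Oa, while the replicate block and DESeq2 each called 6 higher. H2-Oa (3.64 ± 1.39, adjusted p = 0.0490) was not called without any 1 of the si-control libraries or without si-control + TNF replicate 1, 2 or 4 (adjusted p = 0.0555 to 0.121). The summed level of the list was 0.176-1.06 CPM without cytokine and 2.41-7.17 CPM with TNF. Cd74, the invariant chain, had at most 2 counts in each si-control library and 3.78, 3.75, 1.43 and 1.07 CPM with TNF, a ratio of summed counts of 42.9 (95% interval 18.1 to 133). Ciita, the class II transactivator, was at 0.0938, 0.212, 0.0439 and 0 CPM and at 0.988, 1.26, 0.173 and 0.0928 CPM, where replicates 1 and 2 were higher with TNF and 3 and 4 overlapped with si-control (adjusted p = 0.114, and 0.00236 with the block). The median of the list was 2.84, or 1.99 with the 2 genes at 0 in every si-control library set to their bound.

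Of 18 co-stimulatory and inhibitory ligands 14 were tested, 6 were called higher and 0 lower, with a median of 0.64, while the replicate block called 1 lower. Cd274, which encodes PD-L1, stood at 7.27, 8.32, 9.31 and 9.05 CPM in si-control and at 51.4, 68.1, 46.9 and 42.9 CPM with TNF. It was higher in every TNF library (2.62 ± 0.26, 6.16-fold, adjusted p = 1.04e-08). Icosl, the ligand of ICOS on T cells, had at most 1 count in each si-control library and 1.67, 1.73, 2.25 and 2.83 CPM with TNF, a ratio of summed counts of 90.5 (95% interval 24.7 to 753). Tnfsf15, known as TL1A, was at 0 in every si-control library and at 0.172, 0.656, 0.216 and 0.232 CPM with TNF, at least 2.22-fold higher by the floor of 3 counts per library. Tnfsf4, the OX40 ligand, rose by 1.68 ± 0.22. Cd80 and Cd40 were not called, at -0.16 and 0.77. Bounds and intervals cover counting error only.

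Coagulation genes were called lower more often than higher. Their summed level nevertheless rose without overlap, from 3686-4091 CPM without cytokine to 4980-6011 CPM with TNF. Of 22 listed genes 20 were tested, 3 were called higher, near the share of all genes (16.1%), and 7 lower, with a median of -0.44, and 4 were called lower with the 8 libraries fitted alone. Serpine2, a protease inhibitor that blocks thrombin, went from 2.81, 2.17, 1.32 and 1.97 CPM to 7.56, 9.23, 3.76 and 3.90 CPM. All TNF libraries were higher (1.56 ± 0.31, 2.95-fold, adjusted p = 0.000287). Vwf, the platelet-binding protein of EC granules, fell from 35.6, 37.0, 57.3 and 55.6 CPM to 4.77, 4.64, 3.72 and 2.37 CPM. It was lower in every TNF library (-3.58 ± 0.29, 11.96-fold, adjusted p = 3.63e-10), with -2.95 in replicates 1 and 2 and -4.20 in 3 and 4. Entpd1, the ectoenzyme that clears ATP, fell from 187, 231, 195 and 201 CPM to 74.8, 75.1, 102 and 93.1 CPM (-1.24 ± 0.10), and Pros1 (protein S) fell (-0.73 ± 0.13). Plat, the tissue plasminogen activator, fell within each set, from 194 and 224 CPM to 34.7 and 36.2 CPM in replicates 1 and 2 and from 27.9 and 31.5 CPM to 8.39 and 9.56 CPM in 3 and 4. The groups overlapped, since the sets stood apart in both, and the fit gave -2.43 ± 0.55 (adjusted p = 0.00129, and 0.0589 with the 8 libraries alone). F3 (tissue factor) stood at 1.266, 1.17, 3.38 and 3.90 CPM and 2.53, 3.19, 15.1 and 18.0 CPM (1.98 ± 0.68, adjusted p = 0.0280) with overlapping groups, and 1.22 and 2.18 in the sets. Its call ended with the 8 libraries alone (adjusted p = 0.0728) or no low-count filter (0.0761), without si-control + TNF replicate 3 (adjusted p = 0.0884) or 4 (0.118) and without si-control replicate 1 (0.0836) or 2 (0.0796).

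Of 25 vascular tone genes 21 were tested, 6 were called higher and 7 lower, with a median of -0.12. Nos2, the inducible nitric oxide synthase, was at 0.234, 0.583, 0 and 0.134 CPM in si-control and at 14.4, 18.1, 19.0 and 15.1 CPM with TNF (6.18 ± 0.76, adjusted p = 5.55e-07). Nos3, the endothelial synthase, fell from 235, 244, 269 and 240.3 CPM to 153, 181, 185 and 209 CPM. Its groups did not overlap (-0.44 ± 0.12, 1.36-fold, adjusted p = 0.00714). Of the enzymes of prostaglandin synthesis, Ptgs1 fell (-2.78 ± 0.56), and Ptges and Ptgds rose by 2.63 ± 0.59 and 2.51 ± 0.66. Ace, the angiotensin-converting enzyme, fell from 36.8, 47.5, 77.8 and 76.5 CPM to 21.2, 23.4, 14.1 and 13.8 CPM (-1.72 ± 0.24), and the adrenomedullin co-receptors Ramp2 (-1.56 ± 0.15) and Ramp3 (-3.36 ± 0.52) fell as well. Klf2, a flow-responsive transcription factor, was not called over all groups (-0.65 ± 0.35, adjusted p = 0.173). Its TNF libraries lay below all si-control libraries, and it was called with the 8 libraries alone (adjusted p = 0.0327, and 0.0189 with the block) and in replicates 3 and 4 alone (1.31e-05).

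Of 25 angiogenic factors and receptors 24 were tested, 4 were called higher, near the share of all genes (16.1%), and 6 lower. The median was -0.25, and the replicate block called 11 lower. Vegfc, a growth factor of lymphatic vessels, rose from 0.516, 0.424, 0.527 and 0.583 CPM to 4.08, 3.65, 11.5 and 9.79 CPM (3.80 ± 0.41, adjusted p = 3.96e-08), and Vegfa from 5.39, 5.99, 7.51 and 7.89 CPM to 11.5, 12.9, 35.8 and 33.9 CPM (1.81 ± 0.38). In both, replicates 3 and 4 were the highest with TNF. Angpt2, the antagonist ligand of TIE2, fell from 1530.3, 1966, 510.0 and 595 CPM to 418, 448, 286 and 270.3 CPM. Every TNF library was lower, with -2.01 in replicates 1 and 2 and -0.99 in 3 and 4 (-1.69 ± 0.48 over all, adjusted p = 0.00842). Esm1, a tip cell gene, fell (-1.16 ± 0.25). Kdr, the main VEGF receptor, stood at 327, 343, 334 and 347 CPM and 318, 377, 245 and 231 CPM and was not called (-0.21 ± 0.14, adjusted p = 0.286), and its sign differed between the sets, with 0.05 in replicates 1 and 2 and -0.52 in 3 and 4.

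All 22 genes that define ECs had a negative fold change. Of the 22 listed identity genes 11 were called lower and 0 higher, with a median of -0.65, and their summed level was 8877-12790 CPM without cytokine and 5835-8185 CPM with TNF. The replicate block called 19 lower. Pecam1 went from 1658, 2165, 1287 and 1384 CPM to 1087, 1188, 845 and 791 CPM (-0.73 ± 0.17, adjusted p = 0.00136) and Eng, a co-receptor of BMP9, from 1275, 1534, 995 and 953 CPM to 479, 589, 546 and 568 CPM (-1.12 ± 0.17, adjusted p = 9.75e-06). All TNF libraries were lower in both. Tie1 fell (-0.83 ± 0.21). Cdh5 (VE-cadherin) fell within each set, and with 2167, 2879, 1507 and 1556 CPM against 1346, 1582, 1070.5 and 1078 CPM the groups overlapped (-0.68 ± 0.23, adjusted p = 0.0263, and 9.70e-07 with the block). The Cdh5 call ended without si-control + TNF replicate 3 (adjusted p = 0.0812) or 4 (0.0771), without si-control replicate 1 (0.0587) or 2 (0.148) and with the 8 libraries alone (0.0616). The count of 11 was 6 or 7 without those same 4 libraries.

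Of 23 Notch and arteriovenous genes 20 were tested, 1 was called higher and 6 lower, with a median of -0.53. The count of 6 was 3 without si-control + TNF replicate 3 or 4 and 2 without si-control replicate 2. Notch1 fell from 215, 238, 248 and 224 CPM to 119.6, 152, 136 and 132 CPM (-0.78 ± 0.12, adjusted p = 7.41e-06) without overlap, the glycosyltransferase Mfng fell (-1.47 ± 0.24), and the ligand Jag1 rose from 90.5, 80.2, 102 and 100.4 CPM to 157, 162, 171 and 164 CPM (0.81 ± 0.14).

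Of 18 junction genes 18 were tested, 2 were called higher and 8 lower, with a median of -0.35. The replicate block called 5 higher, and the count of 8 was 4 without si-control + TNF replicate 3 and 5 without si-control + TNF replicate 4 or si-control replicate 2. Cldn1, a claudin of epithelial tight junctions, went from 0.234, 0.0530, 0.0878 and 0.314 CPM to 12.6, 12.8, 27.8 and 24.7 CPM (6.75 ± 0.49, 107-fold, adjusted p = 3.79e-11). Cldn5, the claudin of endothelial tight junctions, stood at 23.6, 22.2, 16.3 and 13.5 CPM and 7.90, 6.93, 1.599 and 1.02 CPM. Its 4 TNF libraries lay below all si-control libraries, and it was not called over all groups (-2.11 ± 0.87, adjusted p = 0.0672). It was called with the replicate block (8.01e-06) and with the 8 libraries alone (0.0294). Ocln, a partner of the claudins, fell (-1.64 ± 0.41), and so did the plaque protein Jup (-0.63 ± 0.10).

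Matrix-degrading enzymes moved both ways. Of 23 metalloproteinases and inhibitors 19 were tested, 5 were called higher and 5 lower, with a median of 0.28. Mmp9, a gelatinase, had at most 3 counts in each si-control library and 2.71, 2.58, 9.25 and 10.3 CPM with TNF, a ratio of summed counts of 66.2 (95% interval 33.4 to 154). The collagenase Mmp13 rose from 0.0938, 0.0530, 0.0878 and 0.359 CPM to 7.13, 7.64, 9.34 and 7.42 CPM (5.64 ± 0.41). Adamts1, which cleaves matrix proteoglycans, fell from 344, 401, 194 and 196 CPM to 92.1, 106, 44.0 and 41.9 CPM (4.00-fold, adjusted p = 0.000115), and the inhibitor Timp3 from 453, 467, 585 and 627 CPM to 161, 167, 285 and 271 CPM (-1.269 ± 0.16).

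Of 27 matrix proteins 24 were tested, 2 were called higher and 7 lower, with a median of -0.33, and the replicate block called 5 higher and 14 lower. Col3a1, a fibrillar collagen, fell from 41.7, 45.6, 77.9 and 75.2 CPM to 5.07, 5.06, 3.16 and 4.08 CPM (-3.79 ± 0.33, adjusted p = 1.20e-09), with -3.11 and -4.40 in the sets. Sparc fell (-0.73 ± 0.16), and Col6a1 rose from 0.212-0.834 CPM to 4.13-9.56 CPM. Of the fibroblast and mural markers, 9 of 18 were tested, Dcn and Pdgfra were called higher and Col3a1 lower, with a median of -0.11. Dcn (decorin) went from 0.891, 1.91, 0.834 and 0.448 CPM to 53.8, 53.5, 12.1 and 11.9 CPM (5.03 ± 0.74), and Pdgfra from 0.281, 0.159, 0.483 and 0.941 CPM to 2.02, 1.87, 2.38 and 3.06 CPM (2.29 ± 0.72, adjusted p = 0.0163). Pdgfra was not called without si-control replicate 1 (adjusted p = 0.0509) or 2 (0.0524). The summed level of that marker list was 54.4-108.8 CPM without cytokine and 43.9-72.6 CPM with TNF, and its untested members held at most 8 counts in a library.

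Of 18 complement genes 14 were tested, 6 were called higher and 1 lower, with a median of 0.62. The 1 called lower was the inhibitor Cd59a (-0.66 ± 0.14), whose call ended with the 8 libraries alone (adjusted p = 0.0545), and 2 were called lower without si-control + TNF replicate 1. C3, the central component, went from 265, 341, 32.7 and 35.3 CPM to 1531, 1750.0, 850.3 and 838 CPM. Its replicate sets stood apart in si-control, and the rise was 2.44 in replicates 1 and 2 and 4.64 in 3 and 4 (2.88 ± 0.88 over all, adjusted p = 0.0135). Cfb, the factor B of the alternative pathway, rose from 2.25, 1.11, 1.54 and 0.583 CPM to 34.2, 34.1, 12.9 and 16.0 CPM (4.14 ± 0.65), and the classical pathway proteases C1s1 and C1ra by 3.49 ± 0.70 and 2.31 ± 0.25.

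Of TGF-β and BMP genes, more were called lower than higher. Of 25 listed genes 25 were tested, 2 were called higher and 10 lower, with a median of -0.37. Id2, a target of BMP receptors, fell from 66.8, 68.2, 87.4 and 98.7 CPM to 30.1, 27.7, 16.9 and 12.5 CPM (-1.88 ± 0.21, adjusted p = 8.04e-08), and Id1 fell too (-1.46 ± 0.26). The ligand Bmp4 fell from 152, 173, 150.4 and 137 CPM to 69.1, 81.9, 53.9 and 53.3 CPM (-1.25 ± 0.14) and the receptor Tgfbr2 fell (-1.08 ± 0.22). All TNF libraries lay below all si-control libraries in these genes. Tgfb2 rose by 1.12 ± 0.14, and Bmp2 had at most 2 counts in each si-control library and 1.42, 1.17, 0.475 and 0.278 CPM with TNF.

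Of 26 oxidant and antioxidant genes 22 were tested, 7 were called higher and 2 lower, with a median of 0.29. The 2 called lower were Sod1 (-0.49 ± 0.16, adjusted p = 0.0182) and Gpx1 (-0.57 ± 0.21, adjusted p = 0.0404). Neither was called without si-control replicate 3 or si-control + TNF replicate 2 or 3 (adjusted p = 0.0507 to 0.161), nor Gpx1 without si-control + TNF replicate 1 (0.0872) or si-control replicate 4 (0.118). Cyba, a subunit of the NADPH oxidases, rose from 46.7, 35.3, 36.6 and 30.5 CPM to 130.1, 102, 75.1 and 88.8 CPM (1.41 ± 0.17, adjusted p = 2.88e-07).

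Of 30 cell cycle genes 28 were tested, 16 were called higher and 1 lower, with a median of 0.69. The 1 called lower was Cdkn1b, which encodes the cell cycle inhibitor p27 (-0.30 ± 0.08), whose call ended with no low-count filter (adjusted p = 0.0575), and 2 were called lower without si-control replicate 1 or 2. The median was 0.97 in replicates 1 and 2 and 0.38 in 3 and 4, and 19 of the 28 were called for a difference between the sets. Top2a, a topoisomerase of dividing cells, stood at 179.7, 193, 393 and 410.5 CPM and 475, 552, 832 and 757 CPM, with no overlap (1.15 ± 0.30). Mcm5, of the replication helicase, rose by 0.91 ± 0.23, and Cdk6 by 1.04 ± 0.14. Of 22 genes of sterol synthesis and uptake 21 were tested and 1 was called higher, Hsd17b7 (1.06 ± 0.27, adjusted p = 0.00309, and 0.0913 with the 8 libraries alone). The replicate block called 1 lower, and the median of the sterol genes was -0.01, with 0.12 in replicates 1 and 2 and -0.37 in 3 and 4. Replicates 1 and 2 alone called 5 higher and 1 lower, replicates 3 and 4 alone called 1 higher and 11 lower, and 11 of the 21 were called for a difference between the sets.

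The 12 largest rises and falls among called genes without overlap between the groups were also named by rule, with Ccl20, Madcam1 and Col3a1 among them. The rule asked for a mean of at least 1 CPM in the higher group. Spib, a transcription factor of B cells and plasmacytoid cells related to PU.1, was at 0 in every si-control library and at 7.04, 7.96, 9.21 and 10.1 CPM with TNF, at least 59.7-fold higher. Adtrp, which regulates tissue factor pathway inhibitor, was likewise at 0 without cytokine and at 3.69, 4.08, 6.92 and 7.38 CPM with TNF, at least 38.3-fold higher. Slc15a3, a peptide and histidine transporter of endolysosomes, H2-M2, a non-classical MHC gene, and Slamf8 were also at 0 in si-control and at least 17.6-fold, 12.2-fold and 8.61-fold higher. Myh15, Pglyrp2 and Col14a1 each held 1 count over the 4 si-control libraries. Their ratios of summed counts were 281 (95% interval 49.99 to 11125), 237 (95% interval 42.1 to 9384) and 166 (95% interval 29.4 to 6584). Ubd, the ubiquitin-like protein FAT10, went from 0.281, 0.212, 0.132 and 0.403 CPM to 61.7, 67.4, 14.7 and 17.3 CPM. Replicates 1 and 2 were the highest with TNF, and the rise was 7.25 ± 0.77 (adjusted p = 4.69e-08), larger in replicates 1 and 2 (7.99) than in 3 and 4 (5.87). Saa3, an acute phase protein, rose from 0.0469, 0.265, 0 and 0 CPM to 15.8, 14.5, 1.82 and 2.74 CPM (6.82 ± 1.44).

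Among the falls, Aqp1, the water channel of capillary endothelium, went from 225, 234, 213 and 218 CPM to 10.3, 10.8, 3.59 and 3.71 CPM. All TNF libraries were at least 10-fold below all si-control libraries, and the difference was -4.97 ± 0.52 (31.3-fold, adjusted p = 4.30e-08), with -4.44 and -5.88 in the sets. Lmcd1, a LIM domain protein, fell from 14.3, 15.05, 14.0 and 13.0 CPM to 0.472, 0.609, 0.216 and 0.139 CPM (-5.27 ± 0.50, adjusted p = 4.72e-09). Chodl, a C-type lectin, stood at 3.66, 4.40, 0.439 and 1.03 CPM in si-control and at 0 in every TNF library, at least 17.3-fold lower. Scn3a, a sodium channel, fell from 153, 190.4, 12.4 and 17.2 CPM to 6.05, 5.25, 0.216 and 0.0928 CPM, where replicates 1 and 2 were higher in both groups (-5.00 ± 1.30). The other falls named were those of Galnt15, a glycosyltransferase (-5.06 ± 0.66), Nmb, which encodes neuromedin B (-4.61 ± 0.67), the protocadherin Pcdh20 (-4.43 ± 0.80), the carbonic anhydrase Car2 (-4.24 ± 0.64), the plexin Plxnb3 (-3.94 ± 0.72) and Masp1, a protease of the lectin pathway (-3.88 ± 0.80). Limch1 held 97 counts over the si-control libraries and 7 over the TNF libraries, a ratio of 14.5 (95% interval 6.76 to 36.9).

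The size of the response differed between the replicate sets for 2408 genes (15.8%), of which 1126 responded more positively in replicates 3 and 4 and 1282 in replicates 1 and 2. This majority turned round with RLE scaling (1345 and 1114) and DESeq2 (1445 and 1181). Leaving out si-control replicate 2 gave 1451 calls, and leaving out si-control + TNF replicate 1 gave 1589. Of all genes, 165 were called in opposite directions in the 2 sets. By rule, the genes with the largest differences were Ltb, Galnt15 and Cthrc1, lower in replicates 3 and 4, and Rarb, Spx and Pappa2, higher there. Ltb, which encodes lymphotoxin β, went from at most 3 counts in each si-control library to 4.94, 3.80, 0.605 and 0.418 CPM, and replicates 1 and 2 were the highest (adjusted p of the difference = 0.00434, and 0.0527 without si-control replicate 3). Pappa2, a protease that releases insulin-like growth factors, had 0.375, 0.583, 0.0878 and 0.0448 CPM without cytokine and 1.20, 1.78, 3.50 and 2.97 CPM with TNF, a rise of 1.64 in replicates 1 and 2 and of 5.49 in 3 and 4 (adjusted p of the difference = 0.000211). Its si-control levels in replicates 3 and 4 were near the counting limit. Spx, which encodes spexin, fell in replicates 1 and 2 (-4.31), from 3.47 and 3.87 CPM to 0.129 and 0.234 CPM, and was near the counting limit in 3 and 4 (adjusted p of the difference = 0.00591, and 0.0548 without si-control + TNF replicate 3). Rarb, a retinoic acid receptor, fell in replicates 1 and 2 and was not called in 3 and 4 (-3.31 against 0.61, adjusted p of the difference = 0.00113). Cthrc1 was called lower in replicates 3 and 4 (-2.47) and not in 1 and 2 (1.41, adjusted p of the difference = 0.00194). Galnt15 fell in both sets (-3.59 and -7.02, adjusted p of the difference = 0.0272), and its difference was not called without any 1 of the TNF libraries or si-control replicate 2 (adjusted p = 0.0528 to 0.104). In replicates 3 and 4 it went from 6.59 and 6.50 CPM to 0.0432 and 0.0464 CPM, at the counting limit. Galnt15 held 12 counts in all over the TNF libraries.

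**Figure D4:**
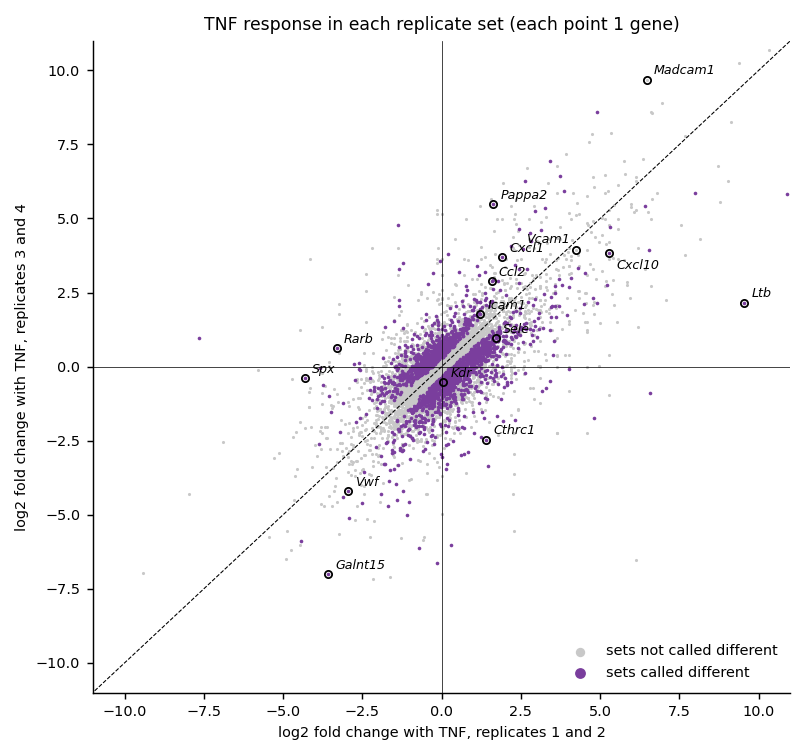
Each point is 1 tested gene, with its log2 fold change with TNF in replicates 1 and 2 on the x axis and in replicates 3 and 4 on the y axis; purple genes were called for a difference between the sets and the dashed line marks equality. Most genes lie in the 2 quadrants of equal sign, and Ltb, Galnt15, Rarb, Spx, Pappa2 and Cthrc1 are the labelled genes farthest from the line.

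The 8 si-dnmt libraries gave a second measurement of the TNF response in cultures that share no library with the first. TNF raised 1753 genes (11.5%) and lowered 1455 (9.54%) there. The sign was the same in si-dnmt for 97.2% of the genes called higher in si-control and for 96.5% of those called lower. Of the genes called higher in si-control 1358 were called higher in si-dnmt, which is 55.2% of the si-control calls and 77.5% of the si-dnmt calls. For the genes called lower these were 1167 genes, 52.4% and 80.2%. The median of the interferon-stimulated genes was 1.00 in si-dnmt, that of the CXC chemokines 2.73 and that of the identity genes -0.63.

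The response itself was called different between the siRNAs for 5 genes (0.0328%) by edgeR, for 53 by DESeq2 and for 121 (0.793%) with the replicate block. In edgeR 1010 of the 15254 genes tested had an unadjusted p under 0.05, a limit that a share of 0.05 passes by chance alone. Vcam1 stood at 91.3, 103, 139.7 and 119.5 CPM in si-dnmt and at 1023, 945, 954 and 894 CPM in si-dnmt + TNF. All 4 libraries were above those of si-control both without and with TNF, and the fold change with TNF was smaller (-1.02 ± 0.15 on the log2 scale, adjusted p = 0.00535). Vcam1 was called without each of the 16 libraries in turn. Zbp1 went from 35.1, 38.2, 10.5 and 13.0 CPM to 128, 146, 92.5 and 90.1 CPM in si-dnmt, where all 4 libraries without cytokine were above those of si-control, and its response was smaller (-2.40 ± 0.41, adjusted p = 0.0153). Zbp1 was not called without si-dnmt replicate 2 (adjusted p = 0.0537) or si-dnmt + TNF replicate 3 (0.0627) or 4 (0.0556). Slc16a10, a transporter of aromatic amino acids, and Ascc3, a helicase, also responded less in si-dnmt (-0.80 ± 0.14 and -0.70 ± 0.13). Smarca2, a chromatin remodelling ATPase, fell with TNF in si-control (-0.86 ± 0.08) and fell less in si-dnmt (-0.25 ± 0.08). Its difference was therefore positive (0.60 ± 0.11, adjusted p = 0.0355). Slc16a10 was not called without 5 of the 16 libraries (adjusted p = 0.0508 to 0.0627), nor Ascc3 and Smarca2 without 13 each (0.0534 to 0.109 and 0.0504 to 0.109). The count of 5 was 13 without si-control + TNF replicate 1, 8 without si-control replicate 4, 3 without si-control replicate 3, si-control + TNF replicate 3 or si-dnmt + TNF replicate 2, 2 without si-dnmt replicate 3 or si-dnmt + TNF replicate 1, and 1 without si-dnmt replicate 2 or si-dnmt + TNF replicate 3 or 4. Dnmt1, the targeted gene, stood at 90.05, 89.1, 153 and 148 CPM in si-control libraries and 157, 155, 185 and 189.7 CPM when TNF was added. The si-dnmt libraries held 10.3, 12.4, 6.44 and 6.53 CPM alone and 16.0, 14.96, 6.96 and 9.19 CPM when TNF was added, which checks the siRNA labels. Its difference with TNF in si-control cells was not called (0.52 ± 0.33, adjusted p = 0.259), although each set on its own was called higher, at 0.80 and 0.32.

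Set directly against si-control + IFN, 2025 genes (13.3%) were higher and 2293 (15.0%) lower with TNF. H2-K1 had 2961, 3270.0, 1380.0 and 1718 CPM with IFN, above every TNF library (-1.11 ± 0.34 for TNF over IFN, adjusted p = 0.0147). Of the 21 tested class I genes 17 were lower with TNF than with IFN and 1 was higher, and of the 39 interferon-stimulated genes 12 were lower and 2 higher. Irf1 stood at 838, 917, 595 and 661 CPM with IFN (-2.38 ± 0.15, adjusted p = 9.66e-13), above every TNF library. Cxcl10 had 381, 436, 172 and 165 CPM with IFN, overlapping with TNF (-0.08 ± 0.27, adjusted p = 0.868). Ciita reached 238, 278, 100 and 124 CPM with IFN, H2-Ab1 165, 208, 55.3 and 64.0 CPM and H2-Eb1 112, 131, 27.6 and 32.1 CPM, each far above every TNF library. Apol6 had 149, 129, 105 and 104 CPM with IFN and 0.0859, 0.187, 0.130 and 0.0928 CPM with TNF (-9.88 ± 0.32). Serping1, the inhibitor of C1 proteases, had 41.5, 52.6, 24.4 and 28.9 CPM with IFN and held 4 counts in all over the TNF libraries, with an IFN to TNF ratio of summed counts of 769 (95% interval 300.1 to 2825).

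Most NF-κB genes and CXC chemokines stood higher with TNF than with IFN. Nfkbia had 90.4, 106, 41.5 and 53.7 CPM with IFN, below every TNF library (1.80 ± 0.23, adjusted p = 5.20e-07), and Relb had 21.3, 23.4, 13.5 and 16.6 CPM (2.05 ± 0.18). Of the 11 NF-κB subunits and IκB proteins 9 were higher with TNF than with IFN, and of the 10 CXC chemokines 7 were higher and 1 was lower. Of the 12 tested CC chemokines and fractalkine 6 were higher and 3 lower. Madcam1 had 0, 0.0520, 0 and 0.0540 CPM with IFN, and Mmp9 0, 0, 0.109 and 0 CPM. Their TNF to IFN ratios of summed counts were 456 (95% interval 126 to 3773) and 246 (67.8 to 2036). Myh15 and Pglyrp2 were at 0 in every IFN library and at least 21.2-fold and 17.9-fold higher with TNF. Over si-control, with which both cytokine groups were compared, Vcam1 changed by 4.10 ± 0.12 with TNF and by 1.26 ± 0.11 with IFN, and Aqp1 by -4.97 ± 0.52 and -2.68 ± 0.46.

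**Figure D5:**
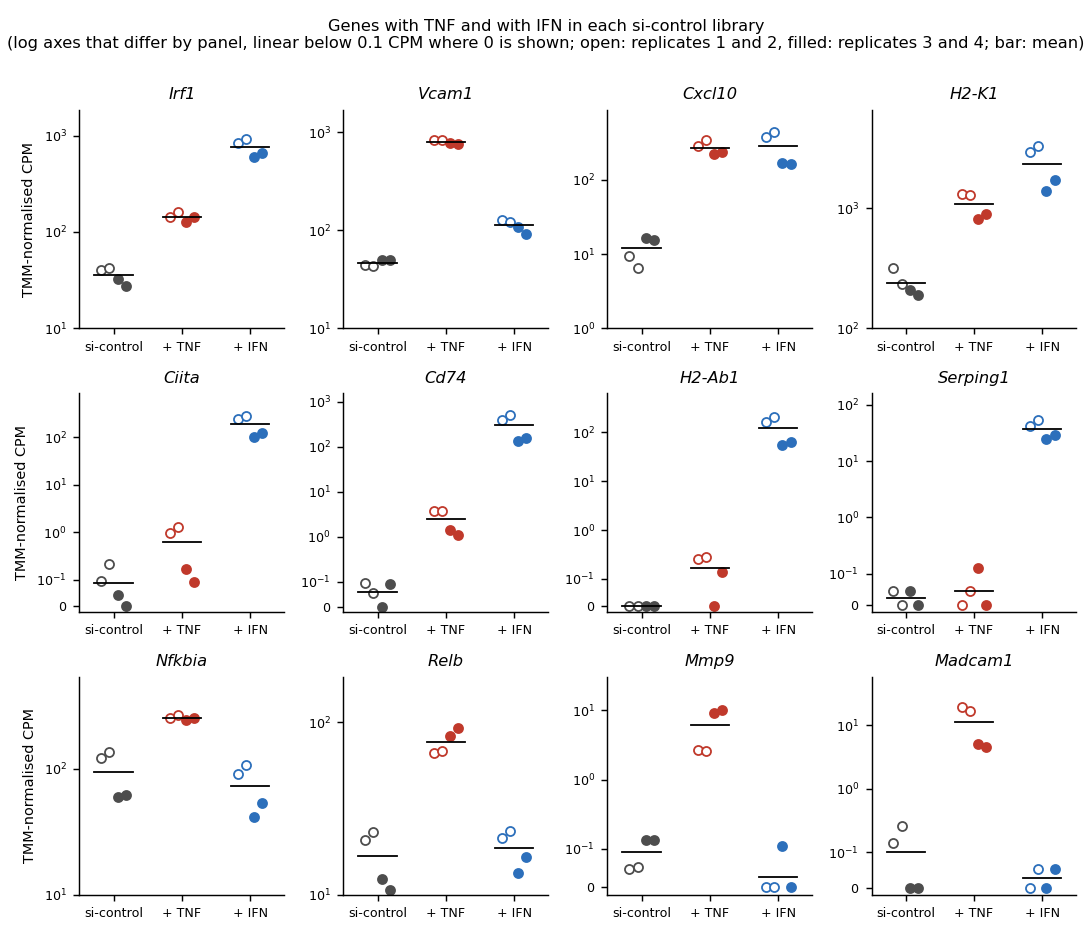
Each panel shows 1 gene in the si-control, si-control + TNF and si-control + IFN libraries, with TMM-normalised CPM on a log axis of its own (linear below 0.1 CPM where 0 is shown), 1 point per library, open for replicates 1 and 2 and filled for 3 and 4, and a bar at the mean of 4. Irf1, H2-K1, Ciita, Cd74, H2-Ab1 and Serping1 are highest with IFN, Vcam1, Nfkbia, Relb, Mmp9 and Madcam1 are highest with TNF, and the TNF and IFN libraries of Cxcl10 overlap.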

How the data were processed

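Total RNA of 32 cultures was sequenced as bulk mRNA libraries, and the 8 si-control libraries without cytokine or with TNF are described here. The deposited files hold whole-number counts of reads per gene for 54532 identifiers in each library. Per the submitters' processing notes, the authors trimmed reads with cutadapt 4.9, checked them with FastQC 0.12.1 and MultiQC 1.27.1 and counted them with featureCounts, and named DESeq2 without a version. The sources used here do not name the aligner, genome build, annotation or strand setting, so counts of overlapping, antisense and near-identical genes are uncertain. Symbols are those of the deposited files, and 203 identifiers share a symbol with another. Of the identifiers 54409 were found in GENCODE M21, which was used to mark pseudogenes. A merged table of the deposited counts held 54429 symbols and was not used. Every cell equalled the count of the single file summed over the identifiers of that symbol.

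Counts were analysed in R 4.3.3 with edgeR 4.0.16. Genes were kept by filterByExpr with a minimum count of 10, which left 15254 genes and at least 99.9% of the counts of each library, and libraries were scaled by TMM. The quasi-likelihood fit used the means of all 8 groups of 32 libraries, which share 1 estimate of the spread (24 residual degrees of freedom). The p-values were adjusted by Benjamini-Hochberg over all genes tested, and SE is the absolute log2 fold change divided by the square root of F. The same fit gave the difference of the TNF response between si-dnmt and si-control, and TNF against IFN. A separate fit with 16 means, 1 for each group and replicate set, gave the response within each set and the difference of the sets. Its p-values measure the spread between libraries of the same set. Tests are two-sided. Fold bounds use a floor of 3 counts per library (0.144 CPM in si-control and 0.138 CPM with TNF), ratios of summed counts for genes with 1 to 3 counts in a library have exact Poisson 95% intervals, and reads carry no molecular identifiers. The 8 libraries of 19048427 to 22677895 counts all exceeded sampling noise in their differences, with a lowest mean chi-square of 8.89 per gene between replicates. On simulated counts for si-control + TNF against si-control over the 15254 genes, 38% of rises of 1.5-fold and 78% of rises of 2-fold were recovered, with 9 false calls. The changed genes were drawn from those above a minimum mean count, and the simulation held no division between replicate sets. These values may therefore not hold for genes with few counts or for the real libraries.

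Same-numbered libraries deviated together in all 4 pairs (correlations of their deviations from the group means 0.371 to 0.499). A fit with the replicate number as a block was made. Libraries of the same set but another number correlated at 0.300 to 0.469, and those of the other set were negative. The positive ranges overlap, so the correlations do not show that the number pairs libraries beyond their set. Alternatives were RLE scaling, DESeq2 1.42.0, no low-count filter, the block, the 8 libraries alone, each library left out and each set alone. The gene lists and the genes named by list were chosen with earlier results of these data known. Besides these, the 12 largest rises and 12 largest falls were named among genes called overall without overlap between the groups. Their mean was at least 1 CPM in the higher group, and genes with Gm or Rik names and pseudogenes were left out. The largest differences between siRNAs, sets and cytokines were named too. Promoter sequences came from RefSeq (GRCm38.p6) and were searched on both strands in Python 3.11.15. A few results are not reported here.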

Additional observations from a re-analysis of the deposited data

Results flagged for a closer look

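In groups of 4 libraries, a highest or lowest library far from the other 3 was looked for in both groups of 49 named genes, 98 groups in all. Chance flags about 1 in 20 groups of independent, normally spread values, a rate that may not hold for these libraries. A group at 0 in every library cannot be flagged, and a single count in 1 library of a group always is. Such a library was found in 4 groups, all of them si-control. Cx3cl1 was lowest in replicate 1, at 6.94 CPM, and its gap to the nearest library was 0.901 of the range of the group. Myh15 in replicate 1 (0.0469 CPM), Pglyrp2 in replicate 4 (0.0448 CPM) and Col14a1 in replicate 4 (0.0448 CPM) were each a single count in 1 library where the other 3 held 0.

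The TNF response of 5 genes differed between si-dnmt and si-control by the test of the difference. On the log2 scale the differences were -1.02 for Vcam1, -2.40 for Zbp1, -0.80 for Slc16a10, -0.70 for Ascc3 and 0.60 for Smarca2. Smarca2 fell with TNF, and its positive difference is a smaller fall in si-dnmt. The fits that left out 1 of the 16 libraries kept the call of Vcam1 in all 16.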

How the results depend on the processing

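The TNF response held 4687 calls, and between 3205 and 6604 under scaling by RLE (4690), DESeq2 (5002), no low-count filter (3753), the 8 libraries alone (3205) and the replicate block (6604, or 5026 with the 8 libraries alone). Leaving out a library gave 3934 to 4481 calls, and a limit of 2-fold left 1458. The difference between siRNAs (5 calls) changed most, with 53 by DESeq2, 121 with the replicate block, 1 without the low-count filter, 4 with RLE and 1 to 13 when a library was left out. The difference between replicate sets (2408 calls) ranged from 1451 to 2913 without a library and was 1943 with the 8 libraries alone. TNF against IFN (4318 calls) ranged from 3512 to 4353 without a library, with 6329 under the replicate block and 3449 without the filter. The cause of these changes was not tested. Some fits held fewer libraries, and the fit with no low-count filter held more genes (33542). Over 784 values of 49 named genes with TNF, 757 kept their direction and side of the threshold, 17 lost the call and 9 gained it. The sign changed for Kdr, at 0.0516 in replicates 1 and 2 alone. Genes with few counts in si-control are limited by depth, and the replicate block over all groups changed no call among the 49 named genes. With the 8 libraries alone the block added the calls of Il6 (adjusted p = 0.0281), Klf2 (0.0189) and Dnmt1 (0.00499).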
